A study of Mus musculus with 6 samples.

Results

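The E2f family, Foxm1 and Mybl2 are the transcription factors that time the cell cycle, and the 10 genes described here are E2f1 to E2f8, Foxm1 and Mybl2. Probe sets were chosen by the array's annotation, as those that name a member and no other gene, and 22 of 45101 probe sets met that rule. A further 1 probe set, annotated to Foxm1 and other genes together, was left out. The cells were myoblasts, the dividing precursors of skeletal muscle, from the hindlimb muscle of C57BL/6JRj male mice aged 9 to 15 weeks. All of them grew in Ham's F-10 medium with 20% FBS (fetal bovine serum) and 2.5 ng/ml bFGF (basic fibroblast growth factor), a growth medium that both groups shared. The groups differed in the dish coating, Collagen I or Fibronectin, on which cells were kept for 72 hours, with 3 samples per coating and 6 in all. Nothing in the labels ties the samples to separate cultures or animals. The p-values therefore rest on a spread between samples that may be technical. No genetic change or transgene is given for either group.

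E2f proteins bind DNA mostly as dimers with a DP protein. E2f1 to E2f5 are bound by the pocket proteins Rb1, Rbl1 and Rbl2 until cyclin-dependent kinases release them. E2f1, E2f2 and E2f3 are classed as activators, E2f4 to E2f8 as repressors, and among the latter E2f7 and E2f8 are atypical members that bind DNA without a DP partner. Mybl2 and then Foxm1 join the MuvB complex and switch on genes of G2 phase and mitosis. In muscle, leaving the cell cycle is part of differentiation, and pocket proteins with E2f4 are known for silencing cycle genes in cells that stop dividing.

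Cycle genes, E2f genes among them, are known to carry recognisable elements just upstream of their starts. The 200 bases upstream of 4 annotated starts are printed here, because the first 3 belong to members that rose on fibronectin and the fourth to one that did not pass the test. Capitals mark matches to a 7-base E2F motif (TT, then 2 bases that are each C or G, then CG, then C or G), to the CHR, an element of MuvB binding (TTTGAA or TTCGAA), or to the CCAAT box (CCAAT), on either strand. Motifs and windows were chosen after the sequences had been read.
E2f7, chr10:110745239-110745438, + strand: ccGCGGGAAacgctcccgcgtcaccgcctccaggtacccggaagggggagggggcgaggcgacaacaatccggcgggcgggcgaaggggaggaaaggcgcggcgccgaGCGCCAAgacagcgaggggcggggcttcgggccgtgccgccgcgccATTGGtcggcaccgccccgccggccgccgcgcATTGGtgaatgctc
E2f8, chr7:48881597-48881796, - strand: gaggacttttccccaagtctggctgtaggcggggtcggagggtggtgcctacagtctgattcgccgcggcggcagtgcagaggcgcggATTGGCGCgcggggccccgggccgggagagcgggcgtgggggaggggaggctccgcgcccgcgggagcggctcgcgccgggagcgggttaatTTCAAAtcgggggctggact
Mybl2, chr2:163054435-163054634, + strand: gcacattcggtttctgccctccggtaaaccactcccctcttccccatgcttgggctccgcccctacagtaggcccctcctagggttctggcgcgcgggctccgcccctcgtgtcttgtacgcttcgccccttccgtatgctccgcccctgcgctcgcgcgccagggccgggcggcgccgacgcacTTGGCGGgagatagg
E2f3, first start, chr13:29986064-29986263, - strand: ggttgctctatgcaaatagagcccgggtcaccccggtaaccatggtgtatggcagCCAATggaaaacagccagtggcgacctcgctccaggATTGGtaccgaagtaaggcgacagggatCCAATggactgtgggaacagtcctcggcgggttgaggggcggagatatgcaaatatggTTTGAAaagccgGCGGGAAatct
The sequences are RefSeq's, of assembly GRCm38.p6, each read 5′ to 3′ on the gene's own strand. The first capital run of E2f8 is an E2F match that overlaps a CCAAT box on the opposite strand. The later run is a CHR match on the opposite strand. The starts used for E2f8 and Mybl2 lie 477 and 308 bases inside the outer end of the annotated gene. In E2f2, another member that rose, the E2F matches lay downstream of the start, and the 30 bases from position 21 to 50 are shown for that reason.
E2f2, first start, chr4:136172294-136172323, + strand: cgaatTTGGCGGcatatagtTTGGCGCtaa

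Windows of 300 bases, from 250 before to 50 after a start, were on file for 7 of the 10 members, 9 windows in all. E2f4, E2f5 and Foxm1 had none. Over all 32851 windows of the table, 17.8% held an E2F match, 19.2% a CHR match and 37.4% a CCAAT box. The members are tested genes, for which a share by gene, with a match in any window, is the closer comparison. Over the 8918 tested genes with a window, those shares were 35.6%, 15.9% and 43.1%. E2f7 had 3 E2F matches and 2 CCAAT boxes, E2f8 had 1 of each and a CHR match, and Mybl2 had 1 E2F match. The first start of E2f2 had 2 E2F matches and 1 CCAAT box. Its second start, 8508 bases inside the gene, had 0 E2F matches, 1 CHR match and 3 CCAAT boxes. The first start of E2f3, a gene that did not pass the test, had 3 E2F matches, 1 CHR match and 3 CCAAT boxes. No match was found in the windows of E2f1, E2f6 and the second start of E2f3, which says only that these letters are not in those 300 bases. The E2f1 window belongs to a start 466 bases inside the outer end of that gene, and the second E2f3 start lies 1673 bases inside.

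**Figure D1:**
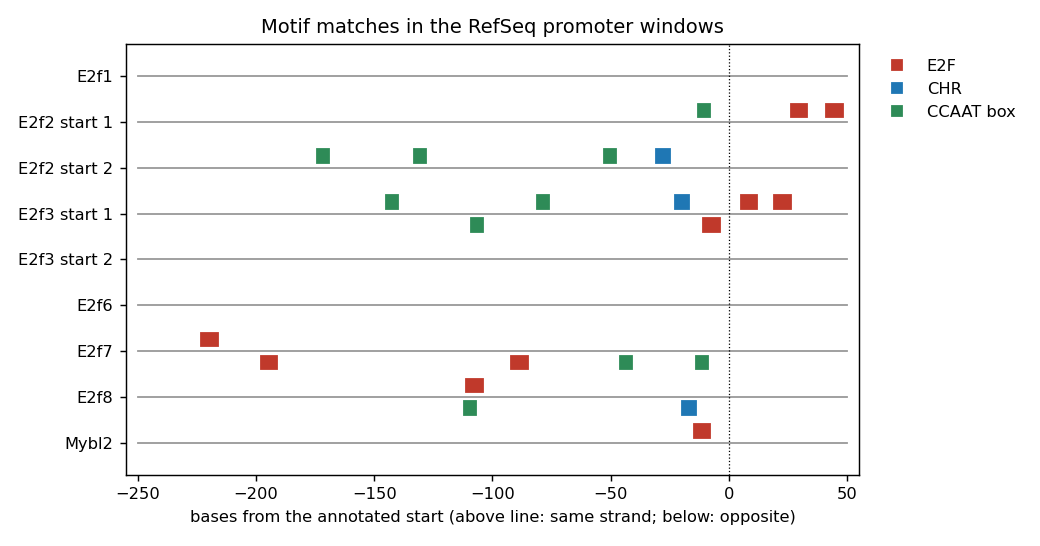
Positions of E2F, CHR and CCAAT box matches (coloured blocks) in the 9 RefSeq windows of the members, in bases from the annotated start, with matches on the gene's strand above each line and those on the opposite strand below it. E2f7 and the first start of E2f3 hold 3 E2F matches each, and 3 windows hold no match.

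The values were log2 signals, in which a difference of 1 is a doubling, and each gene was represented by its brightest probe set. A gene was tested if its mean over the 6 samples reached 2.33, the median of all probe sets, and it was called at an adjusted p of 0.05 in limma. All 10 members passed the brightness filter through that probe set. On fibronectin 5 of the 10 members were higher and 0 were lower than on collagen, by 1.19-fold to 1.42-fold. Of 10942 genes tested, 19.9% were called higher and 20.2% lower. E2f7, Mybl2, E2f8, Foxm1 and E2f2 were the members that rose. E2f1, E2f3, E2f4, E2f5 and E2f6 did not pass. In RNA from a bulk culture, a difference in the share of cycling cells and one in the RNA per cycling cell cannot be told apart.

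Array signals limit what can be compared, and the number of samples limited the precision. Sample medians lay between 2.3 and 2.39, and the median standard error (SE) of a log2 change was 0.06. Samples of the same coating correlated at 0.9969 to 0.998 over all probe sets and samples of different coatings at 0.994 to 0.9954, and no sample stood apart within its coating. The balance of calls depended on the scaling, with 2173 genes higher and 2211 lower as deposited, and 2971 higher and 1646 lower when each sample was centred on its median. All 9 myoblast markers were above the filter. Pax7, Myod1, Myf5 and Itga7 did not pass, Cdh15 and Vcam1 were higher on fibronectin (log2 changes 0.24 and 0.31), and Des, Chrna1 and Ncam1 were lower (-0.23, -0.31 and -0.16). The 5 endothelial markers all lay below the filter. Of the macrophage markers Ptprc, Adgre1 and Itgam lay below the filter, Csf1r did not pass, and Cd68, a lysosomal protein, fell 2.42-fold. Markers of fat cells had Adipoq and Lep below the filter and Pparg, a regulator of fat cell genes, 2.7-fold lower, and those of Schwann cells had S100b below it and Sox10 at a log2 change of 0.05, which did not pass. Among pericyte and smooth muscle markers Kcnj8 and Myh11 lay below the filter, Rgs5 fell 2.36-fold and Cspg4 did not pass. Among fibroblast markers Pdgfra, Dcn, Lum and Tcf21 lay below the filter, Col3a1 rose 1.16-fold and Thy1 fell by 0.32 on the log2 scale. The part of these genes in the results below was not tested.

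The activator E2f1, which drives entry into S phase, had log2 signals of 5.39, 5.55 and 5.50 in collagen samples 1 to 3 and of 5.47, 5.53 and 5.49 in fibronectin samples 1 to 3. The samples of the coatings overlapped throughout. Its log2 change was 0.02 (SE 0.05, 95% interval -0.11 to 0.14, limma adjusted p = 0.828). A dimmer E2f1 probe set, 1417878_at, had a change of 0.10 and did not pass either (adjusted p = 0.188 over all probe sets). The third, 1447840_x_at, lay below the filter, at 1.99 ± 0.17 on collagen and 1.89 ± 0.07 on fibronectin (SD, n = 3).

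E2f2, the second activator, had signals of 3.69, 3.93 and 3.87 on collagen and of 4.18, 4.09 and 3.99 on fibronectin. Every fibronectin sample lay above every collagen sample, although the highest collagen value and the lowest fibronectin value were close. E2f2 rose 1.19-fold (log2 change 0.25, SE 0.08, limma adjusted p = 0.0314). E2f2 no longer passed once collagen replicate 1 (adjusted p = 0.07), collagen replicate 3 (0.0544), fibronectin replicate 1 (0.0984) or fibronectin replicate 2 (0.0746) was left out, at log2 changes between 0.18 and 0.27. Its other probe set, 1455790_at, lay below the filter at 1.50 ± 0.10 on collagen and 1.74 ± 0.04 on fibronectin (SD, n = 3), again with every fibronectin sample above every collagen sample, although collagen replicate 1 was the highest of its coating there and the lowest in the brighter probe set.

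E2f3, whose upstream and internal starts are known to give the isoforms E2f3a and E2f3b, had signals of 6.09, 6.13 and 6.20 on collagen and of 6.14, 6.17 and 6.19 on fibronectin. All 3 fibronectin values fell inside the collagen range. The change was 0.03 (SE 0.05, 95% interval -0.08 to 0.13, limma adjusted p = 0.686). A second probe set, 1427462_at, had a change of 0.08 that did not pass, with fibronectin replicate 1 at 4.72 and the other 5 samples between 4.42 and 4.50. The annotation does not say which isoform either probe set measures.

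E2f4, a repressor that acts with Rbl1 and Rbl2 in resting cells, had signals of 4.65, 4.65 and 4.57 on collagen and of 4.71, 4.82 and 4.74 on fibronectin. The coatings did not overlap, yet the change of 0.13 missed the threshold (SE 0.05, 95% interval 0.02 to 0.25, limma adjusted p = 0.0651). E2f4 passed when samples were centred on their medians, at 0.19 (adjusted p = 0.0258), and when quantile normalisation was repeated, at 0.14 (adjusted p = 0.0499).

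E2f5, a close relative of E2f4, was the member whose probe sets disagreed. The brightest, 1460207_s_at, had signals of 4.84, 4.95 and 4.92 on collagen and of 4.98, 4.94 and 5.14 on fibronectin, with a change of 0.12 (SE 0.06, limma adjusted p = 0.182). Probe set 1417444_at, annotated to the same transcript record, went from 4.17 ± 0.12 to 4.36 ± 0.05 (SD, n = 3; adjusted p = 0.0804 over all probe sets). In contrast 1447625_at, for which the annotation gives no transcript record, had signals of 4.23, 4.04 and 3.93 on collagen and of 3.89, 3.76 and 3.70 on fibronectin. Over all probe sets tested it was called lower, with a change of -0.29 (SE 0.09, limma adjusted p = 0.0403). It was not called once collagen replicate 1 (adjusted p = 0.0839), collagen replicate 2 (0.0851), fibronectin replicate 2 (0.101) or fibronectin replicate 3 (0.121) was left out, while the change stayed between -0.36 and -0.21 over the 6 samples left out in turn. Probe set 1417444_at was called higher without collagen replicate 2, at 0.25 (adjusted p = 0.034), and with samples centred on their medians, at 0.24 (adjusted p = 0.0482). The mean of all E2f5 probe sets had a change of 0.01 (adjusted p = 0.94), so no direction is given for the gene.

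E2f6, which lacks the pocket-binding part and represses with Polycomb proteins, had signals of 7.57, 7.67 and 7.82 on collagen and of 7.73, 7.70 and 7.76 on fibronectin. The fibronectin values lay within the collagen range. The change was 0.05 (SE 0.07, 95% interval -0.11 to 0.20, limma adjusted p = 0.607), and that of its second probe set, 1437914_at, was 0.03. Of 12 listed germline genes on the array, a group known to be silenced by the E2f6 complex, 11 lay below the filter by their mean over both coatings, and Tdrkh did not pass, with a change of 0.13.

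The atypical repressor E2f7, which turns down E2f target genes late in S phase, had the largest change of the 10. Its signals were 5.65, 5.54 and 5.60 on collagen and 6.09, 6.08 and 6.12 on fibronectin. The gap between the coatings was several times the spread within either. E2f7 rose 1.42-fold (log2 change 0.51, SE 0.05, limma adjusted p = 0.000172), a change above that of 97.6% of genes tested. E2f7 had 1 probe set.

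E2f8, the partner of E2f7, had signals of 7.19, 7.13 and 7.22 on collagen and of 7.50, 7.42 and 7.47 on fibronectin. The samples did not overlap. E2f8 rose 1.22-fold (log2 change 0.28, SE 0.05, limma adjusted p = 0.00229), a change above that of 90.7% of genes tested. A second probe set, 1444319_at, lay below the filter at 1.82 ± 0.10 on collagen and 2.18 ± 0.16 on fibronectin (SD, n = 3), again with every fibronectin sample above every collagen sample.

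Mybl2, also called B-Myb, is an E2f target in its own right and works with MuvB in S and G2 phase. Its signals were 4.58, 4.67 and 4.84 on collagen and 5.22, 5.08 and 5.19 on fibronectin. The coatings were apart in spite of the wide collagen spread. Mybl2 rose 1.38-fold (log2 change 0.47, SE 0.07, limma adjusted p = 0.00207). Its second probe set, 1454946_at, rose by 0.43 (SE 0.08, adjusted p = 0.005 over all probe sets), from 3.81 ± 0.14 to 4.24 ± 0.05 (SD, n = 3).

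Foxm1, the forkhead factor that activates mitotic genes, had signals of 4.86, 4.78 and 4.77 on collagen and of 4.97, 5.11 and 5.14 on fibronectin. Collagen replicate 1 and fibronectin replicate 1 lay nearest to each other, and the groups did not overlap. Foxm1 rose 1.21-fold (log2 change 0.27, SE 0.06, limma adjusted p = 0.00798). Its 3 probe sets above the filter gave changes of 0.29, 0.25 and 0.27, all called higher over all probe sets tested, and 1437138_at lay near the bottom of the scale, at 0.31 ± 0.11 and 0.32 ± 0.11 (SD, n = 3). Probe set 1448833_at missed the threshold when collagen replicate 2 (adjusted p = 0.0568), fibronectin replicate 1 (0.0527) or fibronectin replicate 2 (0.0512) was left out. Without a filter it missed too (limma adjusted p = 0.0629 over all probe sets), as did 1448834_at, the brightest (0.0523). By gene, Foxm1 still passed without a filter (limma adjusted p = 0.0284). The table lists the same value, 4.73, for 1448833_at in fibronectin samples 1 and 2.

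**Figure D2:**
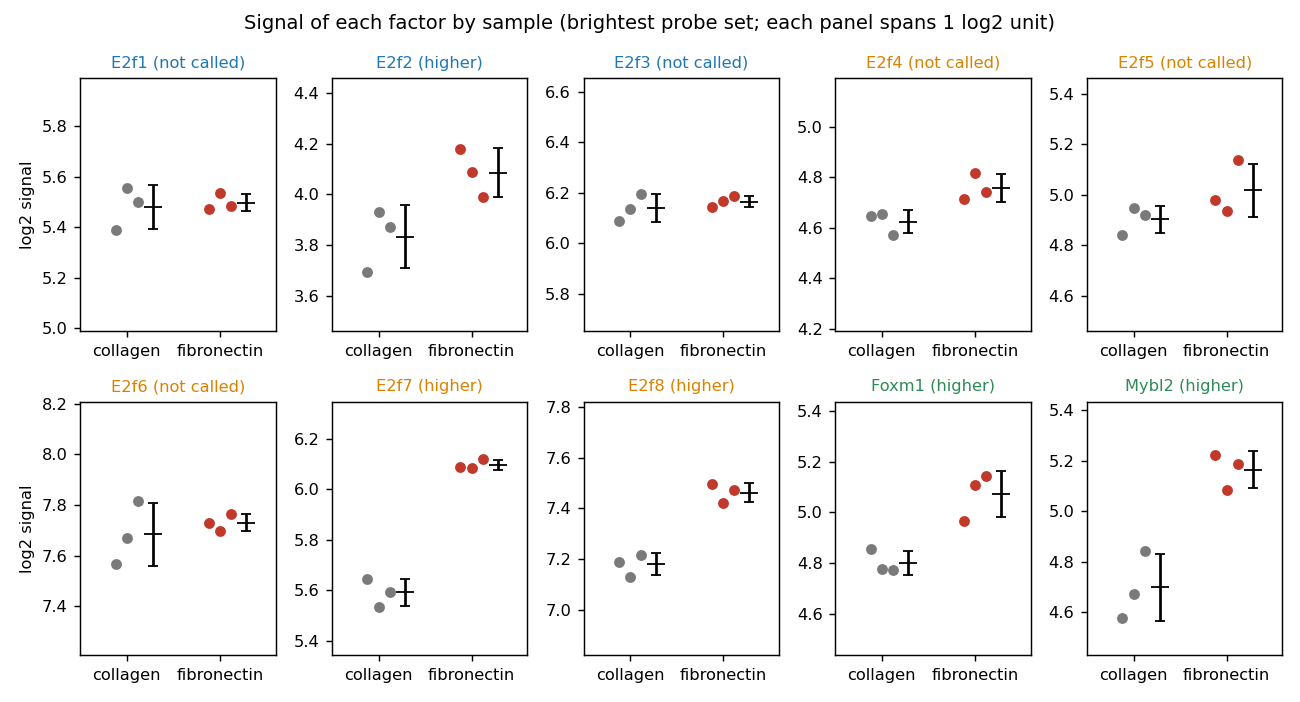
Log2 signal of each member's brightest probe set in the 3 collagen (grey) and 3 fibronectin (red) samples, with the mean and SD beside each group in black; every panel spans 1 log2 unit around the gene's own mean. E2f7 and Mybl2 show the widest gaps between coatings, and the samples of E2f1, E2f3, E2f5 and E2f6 overlap.

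Over single probe sets, 18 of the 22 reached the filter, 8 of them were called higher and 1 lower, and 9 did not pass. Over all 22551 probe sets tested, 16.2% were called higher and 15.7% lower. The 8 higher ones belonged to E2f2, E2f7, E2f8, Foxm1 and Mybl2, and the lower one was the E2f5 probe set described above. These 5 genes are those called by gene, but for E2f2, E2f7 and E2f8 both comparisons used the same probe set. Only Foxm1 and Mybl2 had further probe sets that were called higher. Counted by overlap, 6 of the 10 members had every fibronectin sample above every collagen sample, namely those 5 and E2f4, against 27.4% of all genes tested.

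**Figure D3:**
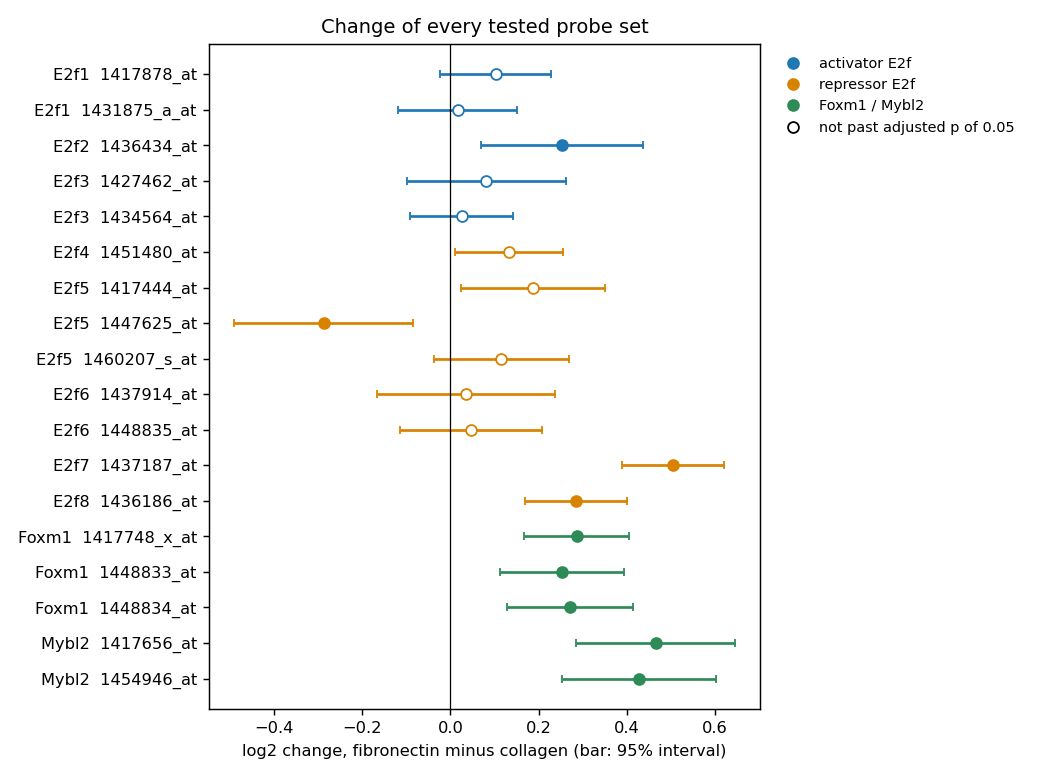
Log2 change (fibronectin minus collagen) of the 18 probe sets above the filter with its 95% interval from limma, coloured by class; filled points passed an adjusted p of 0.05. The probe sets of Foxm1 and Mybl2 lie together at 0.25 to 0.47, whereas those of E2f5 lie on both sides of 0.

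Set side by side, 1 of 3 activators and 2 of 5 repressors were called higher, beside 19.9% of all genes tested. With so few genes, nothing is read from these counts. For a value per sample, each gene was expressed as its deviation from its own mean over the 6 samples and the deviations were averaged over a class. The activators' mean was -0.14, 0.01 and -0.01 in collagen samples 1 to 3 and 0.06, 0.06 and 0.02 in fibronectin samples 1 to 3, a difference of 0.10. That of the repressors was -0.13, -0.12 and -0.08 on collagen and 0.10, 0.09 and 0.14 on fibronectin, a difference of 0.22. The repressors' excess came with E2f7 and E2f8, whose mean differed by 0.40 between coatings, whereas the mean of E2f4, E2f5 and E2f6 differed by 0.10. That 0.10 takes E2f5 at 0.12, from its brightest probe set, whereas the mean of all E2f5 probe sets changed by 0.01. The activators' difference rested on E2f2, at 0.25 beside 0.02 for E2f1 and 0.03 for E2f3, and on collagen sample 1, without which it was 0.05. Without that sample the mean of E2f4, E2f5 and E2f6 differed by 0.07 and that of E2f7 and E2f8 by 0.41. The repressor mean minus the activator mean changed by 0.12 between coatings, with an SD of 0.06 between samples of a coating. Leaving out 1 sample at a time gave 0.09 to 0.16, and using the mean of all probe sets of each gene gave 0.099. The classes were compared as a description, without a test, since each holds few genes and the genes were chosen with results of these data known.

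**Figure D4:**
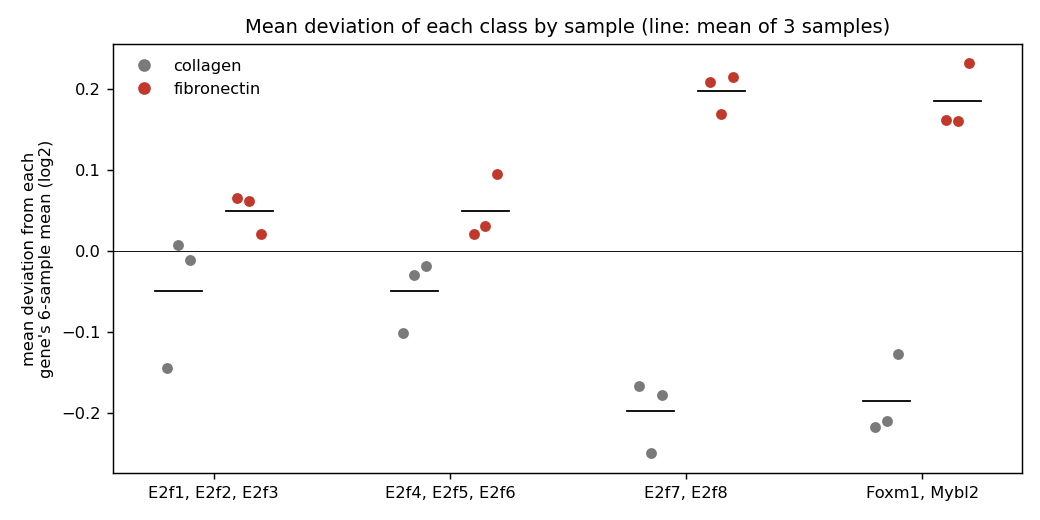
Mean deviation (log2) of the genes of each class from their own 6-sample means, 1 point per sample, grey for collagen and red for fibronectin, with a black line at the mean of 3 samples. E2f7 with E2f8 and Foxm1 with Mybl2 are separated by 0.40 and 0.37, the other E2f genes by 0.10 in each class. Each gene is taken by its brightest probe set, and the probe sets of E2f5 disagreed in direction.

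Among the proteins that E2f factors need, Tfdp1, the main DP partner, rose 1.23-fold (log2 change 0.30, limma adjusted p = 0.00204), and Tfdp2 had a change of 0.12 that did not pass. The pocket protein Rb1, which restrains the activators, rose by 0.32 on the log2 scale, from 4.10 ± 0.02 to 4.42 ± 0.02 (SD, n = 3; limma adjusted p = 0.000887). Rbl1, itself an E2f target, rose 1.16-fold, and Rbl2, the pocket protein of resting cells, had a change of -0.13 that did not pass. In all, 3 of 5 of these genes were higher and 0 lower, with a median change of 0.21 beside 0.00 over all genes tested, of which 19.9% were higher.

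Of the 5 MuvB core genes 2 were higher and 0 lower, with a median change of 0.05, beside 19.9% higher and 20.2% lower over all genes tested. With so few genes nothing is read from that count. Lin54, the subunit that reads the CHR, rose 1.29-fold (log2 change 0.37, limma adjusted p = 0.00668) and Lin9 rose 1.26-fold (0.34, adjusted p = 0.00258). Lin37, Lin52 and Rbbp4 had changes of -0.15, 0.05 and 0.02 and did not pass. Partners of E2f6 had 2 of 11 tested genes higher, L3mbtl2 (1.12-fold) and Hdac2 (1.14-fold), and 1 lower, Yaf2 (1.19-fold). The higher count was 0 without collagen replicate 2, fibronectin replicate 1, fibronectin replicate 2 or fibronectin replicate 3, 4 without collagen replicate 1, and 6 with samples centred, so it is near the background and not stable.

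Upstream of the E2f factors, 5 of 8 genes for G1 cyclins and their kinases were higher and 0 lower, beside the same 19.9% and 20.2% of all genes. Cdk6, a kinase that phosphorylates pocket proteins, rose 2.09-fold, from 6.53 ± 0.05 to 7.59 ± 0.06 (SD, n = 3; limma adjusted p = 1.48e-05). The cyclins Ccne2 and Ccne1, which are also counted among the E2f targets below, rose 1.45-fold and 1.19-fold. Cdk2 rose 1.24-fold and Ccnd2 rose 1.11-fold. Ccnd1, Ccnd3 and Cdk4 had changes of -0.09, -0.17 and 0.00 and did not pass. Of the 8, 1 was called lower without fibronectin replicate 2, and 1 with a filter at the 75th percentile. With an intensity trend and robust variance in limma, 2 were called lower. Of the kinase inhibitors 6 of 7 were tested. Cdkn2c, which binds Cdk4 and Cdk6 and is an E2f target, rose 1.18-fold, Cdkn2b fell 1.14-fold, and Cdkn1a, Cdkn1b, Cdkn2a and Cdkn2d did not pass. The count of higher inhibitors was 0 without collagen replicate 2, collagen replicate 3, fibronectin replicate 2 or fibronectin replicate 3, and that of lower ones was 0 without collagen replicate 2.

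Known E2f targets of G1 and S phase were higher in 45 of 56 tested cases and lower in 1, with a median change of 0.30. That is 80.4% higher and 1.79% lower, where all genes tested had 19.9% and 20.2%. Exo1, Ccne2, Pola1 and Tk1, which serve repair, the start of S phase, DNA synthesis and nucleotide supply, rose 1.42-fold, 1.45-fold, 1.37-fold and 1.44-fold. Cdt1, a licensing factor whose protein is destroyed in S phase, fell by 0.32 on the log2 scale. Genes known to be driven by Foxm1 and MuvB in G2 phase and mitosis were higher in 59 of 61 cases and lower in 1, Pttg1, with a median of 0.42, or 96.7% and 1.64% against the same shares of all genes. Aurka rose 1.51-fold, Melk 1.5-fold, Sgo1 1.48-fold and Cenpa 1.42-fold. Cdc25b, chosen after its value was seen as the remaining gene that did not pass, had a change of 0.02. These lists describe targets in general and were not chosen on binding in these cells, and no list was tested as a whole.

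The elements printed above also recur in these lists, which were drawn up from known targets and so are not independent of the elements. Of 42 tested G1 and S phase targets with a RefSeq window, 78.6% held an E2F match and 16.7% a CHR match. Of 52 genes of the G2 and mitosis list with a window, 34.6% held an E2F match and 71.2% a CHR match. Over 8918 tested genes with a window the shares were 35.6% and 15.9%. CCAAT boxes were found in 64.3%, 73.1% and 43.1% of the 3 groups, in the same order. A match marks letters in the sequence and not a bound site.

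**Figure D5:**
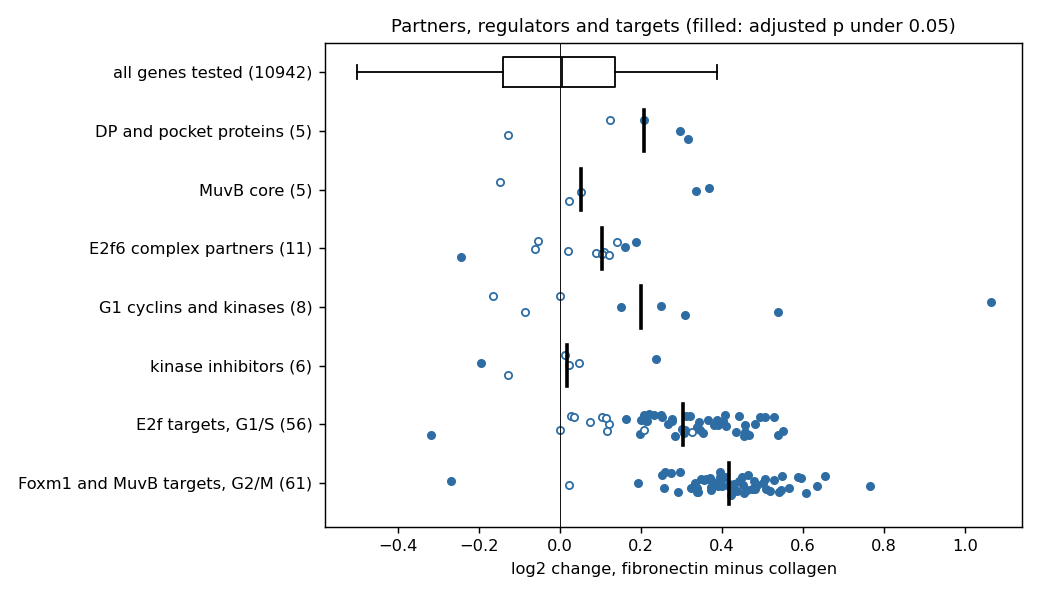
Log2 change of each tested gene in 7 lists of partners, regulators and targets, with the number tested in brackets, filled where the adjusted p was under 0.05 and with a black line at the list median; the box for all genes tested spans the quartiles with whiskers at the 5th and 95th percentiles. The medians of the E2f targets (0.30) and of the Foxm1 and MuvB targets (0.42) lie to the right of the quartile box of all genes.

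Markers of muscle differentiation were lower on fibronectin, whereas the cycle factors that were called were higher. All 11 tested markers of differentiating muscle, of 13 listed, were called lower, beside 20.2% of all genes tested. Among them were Myog (1.78-fold), Myh3 (2.23-fold) and Acta1 (2.89-fold), and Myh8 and Ckm lay below the filter. The mean level of the 13 markers lay between 4.99 and 5.08 in the collagen samples and between 4.09 and 4.31 in the fibronectin samples. Their part in the changes of the E2f genes, Foxm1 and Mybl2 was not tested.

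For each member that rose, the 3 tested genes with the most similar profile were taken, by the root mean square difference of centred log2 values over the 6 samples. The nearest to E2f7 were Sparc, Ccna2 and Ncapg, at 0.0162, 0.0205 and 0.0219, and 37 genes lay within 0.05 of it. Nearest to Mybl2 were Aldh18a1, Depdc1b and Efnb2 (0.0338 to 0.0406), with 15 genes within 0.05. For Foxm1 they were Slc36a4, Apaf1 and H1f10 (0.0191 to 0.0276), and for E2f2 Ing1, Prpf3 and Dis3 (0.0259 to 0.0347). E2f8 had the commonest profile, with 248 genes within 0.05, led by Rcl1, Mmgt1 and Cplane1 (0.00927 to 0.0131). With 6 samples in 2 groups, the measure mostly ranks genes by the size of the difference between coatings. Within the family E2f1 and the repressor E2f6 both lay closest to E2f3 (0.0447 and 0.0448), and E2f8 lay closest to Foxm1 (0.0771).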

How the data were processed

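Expression was measured on an Affymetrix mouse array in 3 collagen and 3 fibronectin samples, grouped by sample title. The deposited log2 signals were made with Affymetrix Expression Console and RMA, per the submitters' processing notes. Software versions and RMA settings were not given in the sources used here. No batch was named, and none was tested. RMA normalises across arrays, which reduces shifts shared by most genes, although the sample medians still lay lower on fibronectin. The lowest value was -0.172. The log2 scale was inferred from the values, and array signals give no count of molecules.

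Names came from the platform annotation, updated through RefSeq (GRCm38.p6), which held 18033 of the gene identifiers. The table's 45101 probe sets comprised 34958 with 1 gene, 932 with several and 9211 without an entry. The brightest probe set represented each of 18194 genes. A mean of 2.33 left 10942 genes. limma 3.58.1 in R 4.3.3 (lmFit, eBayes, two-sided, fibronectin minus collagen) was run with Benjamini-Hochberg adjustment over all genes, and again over 22551 probe sets. Residual and prior degrees of freedom were 4 and 3.8. An exact permutation test of 3 against 3 samples cannot give a p below 0.1, so none was run. The procedure was tested on simulated data. Figures used Python 3.11.15 and matplotlib 3.10.9.

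The members and the lists were chosen with earlier results of these data known. Named were all members, up to 4 genes per list by smallest p, those against a list's direction, any gene of lists of at most 12, markers and the 3 nearest profiles.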

Additional observations from a re-analysis of the deposited data

How the results depend on the processing

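In the comparison by gene, E2f7, E2f8, Foxm1 and Mybl2 kept their direction and their call at an adjusted p of 0.05 in limma. That held under every other normalisation, filter, variance model, weighting, averaging and left-out sample tried. Their log2 changes were 0.48 to 0.56, 0.26 to 0.34, 0.21 to 0.33 and 0.41 to 0.54. The exception was the 75th percentile filter (5.18), which left Foxm1 and Mybl2 untested. E2f2 was lost without a filter (adjusted p = 0.0798) and at a threshold of 0.01. The 75th percentile filter left 2 members higher, and a required change of at least 0.322 (log2) likewise 2, by construction. The count lay between 4 and 5 with samples left out, and it was 6, E2f4 being added, after centring and after repeated quantile normalisation. Higher and lower probe sets numbered 5 and 0 without a filter, 2 and 0 with the 75th percentile filter, 5 and 0 at a threshold of 0.01, and 3 and 0 with that required change. After repeated quantile normalisation the counts were 8 and 0, and after centring 10 and 0. The lower count lay between 0 and 1, and the higher between 6 and 8, with samples left out. The cause of the lost E2f5 call was not tested. At the required change of 0.322, 23 of the G1 and S phase targets and 52 of the G2 and mitosis genes were called higher. With samples left out that list had 39 to 46 higher and the G2 and mitosis list 56 to 59. The replicate numbers were not used to pair samples, since the deviations of equally numbered samples correlated at 0.10, -0.01 and 0.08, and with the replicate block 4 members were higher, E2f2 being lost (adjusted p = 0.0524). Of 887 alternative values, 786 were rated the same as the main result and 0 reversed. For the counts of members, probe sets and higher targets and the class difference, 91 of 108 were rated the same. Many of the 887 are counts, medians or genes that were not called, which hold no call to reverse.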
